A study of Mus musculus with 2 samples.

Results

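The genes of the Notch signal described here are 3 receptors (Notch1, Notch2 and Notch3), 2 Delta ligands (Dll1 and Dll3), 2 Jagged ligands (Jag1 and Jag2), 2 Fringe enzymes (Lfng and Mfng) and the DNA-binding factor Rbpj. They were chosen by name: every probe set whose platform annotation gives 1 of these 10 symbols and no other was taken, which gave 11 probe sets among the 21789 with a single symbol and the 28944 on the array. Each gene had 1 probe set, apart from Rbpj with 2. The RNA came from neural precursor cells of the forebrain of mouse embryos (strain Jcl:ICR) at stage E11.5. The cells had received a control retrovirus or a retrovirus for HMGN1, a chromatin protein that binds nucleosomes. In both groups the cells were replated 3 days after infection and then spent 1 day in medium lacking the mitogens FGF2 and EGF. There is 1 array per virus, so every difference below is a value from 2 RNA samples with no replicate, and no test between the viruses could be run. The number of animals behind each culture, the promoter of the virus and the share of infected cells are not given in the sources used here.

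Notch signalling passes between neighbouring cells. A Delta or Jagged ligand on 1 cell pulls on a Notch receptor on the next, proteases release the receptor's intracellular part, and this part joins Rbpj on DNA to switch on target genes such as those of the Hes and Hey repressors. In the embryonic forebrain, cells that start to become neurons carry Delta ligands and hold their neighbours in the precursor state, from which glial cells arise later. Fringe enzymes add N-acetylglucosamine to fucose on the receptors inside the Golgi, which tunes how a receptor answers Delta and Jagged ligands.

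The promoters of Lfng, Notch3 and Dll1 are shown because these had the lowest differences of the 10 genes, HMGN1 virus minus control virus. Dll3 is shown as the other Delta gene. Jag1, which was not lower, is shown because it carries a letter match that Dll1, Dll3 and Lfng also carry. The promoters are RefSeq sequences of build GRCm38.p6, from 250 bases before to 50 bases after an annotated start. They are written 5′ to 3′ on the gene's strand. Dll1 has 2 annotated starts. Capitals mark 3 motifs, searched on both strands: GTGGGAA, the core of the sequence that Rbpj binds, CAGCTG, an E-box that proneural factors bind, and ATTTGCAT, the octamer that POU factors bind.
Lfng (chr5:140607091-140607390, plus strand): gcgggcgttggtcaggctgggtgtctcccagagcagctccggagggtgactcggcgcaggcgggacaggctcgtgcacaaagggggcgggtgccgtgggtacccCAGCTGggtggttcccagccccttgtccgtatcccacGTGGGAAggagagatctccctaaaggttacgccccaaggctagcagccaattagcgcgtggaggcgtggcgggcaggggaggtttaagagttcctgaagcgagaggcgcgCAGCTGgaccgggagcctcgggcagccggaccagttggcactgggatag
Dll1, the inner start (chr17:15375774-15376073, minus strand): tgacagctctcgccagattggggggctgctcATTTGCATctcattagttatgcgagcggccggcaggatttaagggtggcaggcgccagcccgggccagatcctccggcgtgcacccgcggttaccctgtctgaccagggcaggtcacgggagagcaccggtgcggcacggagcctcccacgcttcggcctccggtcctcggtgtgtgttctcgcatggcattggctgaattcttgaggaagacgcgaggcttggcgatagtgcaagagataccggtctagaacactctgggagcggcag
Dll1, the outer start (chr17:15376883-15377182, minus strand): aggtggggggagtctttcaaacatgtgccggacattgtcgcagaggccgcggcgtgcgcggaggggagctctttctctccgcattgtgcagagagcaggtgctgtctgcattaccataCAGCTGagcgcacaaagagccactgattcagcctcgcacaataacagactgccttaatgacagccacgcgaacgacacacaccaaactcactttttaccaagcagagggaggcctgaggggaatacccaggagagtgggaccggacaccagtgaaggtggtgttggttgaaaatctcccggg
Dll3 (chr7:28301736-28302035, minus strand): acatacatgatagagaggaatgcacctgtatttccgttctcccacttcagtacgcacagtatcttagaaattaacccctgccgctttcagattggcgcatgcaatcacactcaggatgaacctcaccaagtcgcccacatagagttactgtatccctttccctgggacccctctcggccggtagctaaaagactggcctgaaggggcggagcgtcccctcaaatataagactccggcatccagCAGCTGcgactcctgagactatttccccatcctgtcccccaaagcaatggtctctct
Notch3 (chr17:32166841-32167140, minus strand): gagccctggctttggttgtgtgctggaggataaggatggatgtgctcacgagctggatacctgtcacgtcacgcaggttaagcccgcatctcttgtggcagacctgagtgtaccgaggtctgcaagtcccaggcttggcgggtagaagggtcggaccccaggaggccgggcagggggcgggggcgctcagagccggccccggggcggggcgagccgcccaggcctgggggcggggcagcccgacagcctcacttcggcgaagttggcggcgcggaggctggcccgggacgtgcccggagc
Jag1 (chr2:137116471-137116770, minus strand): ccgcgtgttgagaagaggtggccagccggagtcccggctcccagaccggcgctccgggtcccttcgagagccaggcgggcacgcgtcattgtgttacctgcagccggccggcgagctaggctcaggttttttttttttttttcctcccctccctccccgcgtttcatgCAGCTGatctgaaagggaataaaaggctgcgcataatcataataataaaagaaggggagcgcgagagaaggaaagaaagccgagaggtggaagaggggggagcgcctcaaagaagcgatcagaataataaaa

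GTGGGAA stood in the Lfng window, from position -109 to -103 with 0 as the first transcribed base, where it overlaps an E-box of the general form CANNTG from -112 to -107. It was in none of the other 8 member genes that had a window, and in 7.25% of the 27025 genes with windows of this length. CAGCTG was found in 4 of the 9 member genes, against 18.3% of all genes. Those matches lay in Lfng from -146 to -141 and from 1 to 6, in the outer Dll1 window from -132 to -127, in Dll3 from -7 to -2 and in Jag1 from -82 to -77. ATTTGCAT stood in the inner Dll1 window from -219 to -212, overlapping a CANNTG from -220 to -215, and in 1.97% of all genes. The general form CANNTG, which includes every CAGCTG, was in 5 of the 9 member genes and in 75% of all genes. The Notch3 window held none of these motifs, and neither did those of Notch1, Notch2 and Jag2. Thus CAGCTG was present in lower members and in Jag1, which was higher. A match to a few letters describes the window and does not show that a factor binds there.

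Lfng, Notch3 and Dll1 were lower in the HMGN1 virus sample, by 1.17-fold to 1.21-fold, and no member was higher by as much. Differences are log2(intensity + 16) of the HMGN1 virus array minus that of the control virus array. A gene was counted as lower or higher when it differed by at least 0.20 on this log2 scale. For comparison, different probe sets of the same gene scattered around their mean difference with an SD of 0.0891 (683 genes), which leaves out whatever varies between whole cultures or arrays. All 10 genes were above the detection floor of 85.9 intensity units, set from olfactory receptor probe sets. By this size, 3 of the 10 were lower and 0 were higher, where 2.71% of the 11325 detected genes were lower and 4.22% higher. At any size 6 of the 10 were lower, against 38.4% of all detected genes, and 4 were higher, against 60.1%. The median difference of the 10 was -0.081, and that of all detected genes was 0.027. The differences of the 10 genes had an SD of 0.16, against 0.111 for all detected genes.

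**Figure D1:**
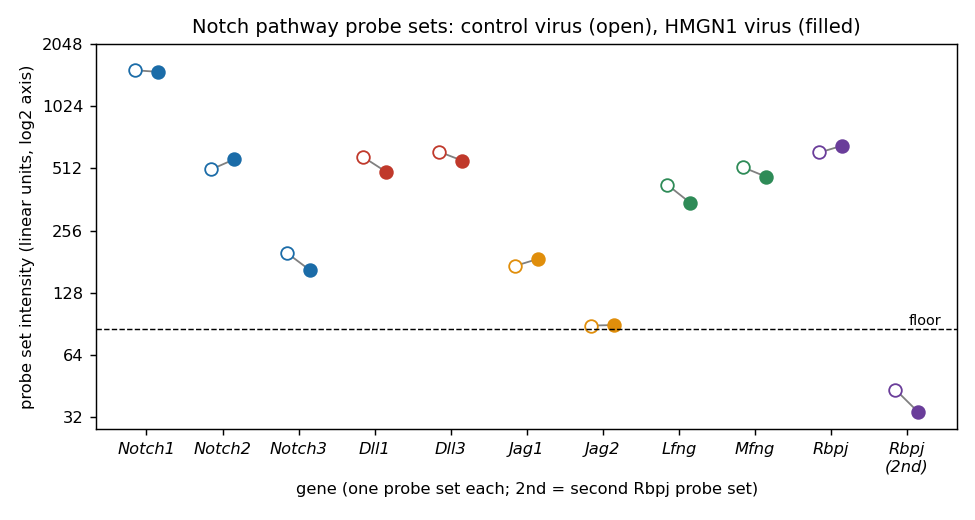
Intensity of each of the 11 probe sets (log2 axis) on the control virus array (open circles) and the HMGN1 virus array (filled circles), 1 array each, with the detection floor of 85.9 as a dashed line. Lfng, Mfng, Dll1, Dll3 and Notch3 slope down and Notch2, Jag1 and the bright Rbpj probe set slope up; the 2nd Rbpj probe set lies under the floor.

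Of the receptors, Notch3 was lower by the log2 size of 0.20, and neither Notch1 nor Notch2 reached it in either direction. Notch1, the main receptor of forebrain precursors, was bright and nearly level, at 1529 on the control array and 1502 on the HMGN1 array, with a log2 difference of -0.025. Notch3, a receptor also prominent in pericytes and vascular smooth muscle, stood at 199.5 (control virus) and 165 (HMGN1 virus), a difference of -0.25 or 1.19-fold lower, and 1.2% of detected genes had a lower difference. Notch2 stood at 507 and 566, a difference of 0.16 or 1.11-fold higher, above that of 90.3% of detected genes. Notch2 and Notch3 thus lay 0.41 apart on the log2 scale, on either side of Notch1. Notch4, a receptor best known from blood vessels and no member of the set, was close to the floor at 95.6 and 85.9, a difference of -0.13. Differences of genes of like brightness to Notch4 had an SD of 0.125, a spread over genes and not between cultures. With 1 array per virus, no difference of Notch4 or of a member can be told from scatter between cultures. Intensities of different probe sets are not comparable with each other, so the receptors are not ranked by level.

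Markers of the other cell types in which Notch3 and Notch4 are best known were read on the same arrays. None of 7 endothelial markers (Pecam1, Cdh5, Kdr, Tek, Cldn5, Esam and Emcn) was above the floor, and their summed intensity was 380.5 on the control array and 360.2 on the HMGN1 array. Of 8 pericyte and mesenchyme markers 3 were above it, Col1a1 (-0.19), Acta2 (-0.039) and Pdgfrb (0.042), with summed intensities of 627 and 619 over all 8. The pericyte markers Rgs5, Kcnj8, Abcc9 and Anpep were under the floor, whereas Pdgfrb, also a pericyte marker, was above it at 129 and 134. The part of such cells in the Notch3 value was not tested. Of 6 microglia markers 1 was detected, Cx3cr1 (0.0080).

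Of the Delta ligands, Dll1 was lower by the log2 size of 0.20 and Dll3 was not. Dll1, the ligand that nascent neurons use to activate Notch in their neighbours, stood at 582 on the control array and 494 on the HMGN1 array, a difference of -0.23 or 1.17-fold lower, and 1.78% of detected genes lay below it. Dll3, a Delta relative that stays largely inside the cell and does not activate Notch on neighbours, stood at 617 and 559, a difference of -0.14 or 1.1-fold lower. For Dll3, 7.23% of detected genes lay below it. Dll4, best known from sprouting vessels and no member of the set, was dim at 109 and 99.9 (-0.11). Differences of genes of like brightness to Dll4 had an SD of 0.125. For genes of like brightness to Dll1 and Dll3 it was 0.0995, in each case a spread over genes and not between cultures.

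The Jagged ligands, the other ligand class, were not lower. Jag1 stood at 173 and 187, a difference of 0.10 or 1.07-fold higher. Jag2 was just above the floor at 89.1 and 89.6, a difference of 0.0073, and this became -0.020 when the arrays were centred on the median of detected genes and -0.023 with the trend on gene span removed. The Delta pair thus differed by -0.23 and -0.14, and the Jagged pair by 0.10 and 0.0073. No test of this contrast could be run.

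Of the Fringe enzymes, Lfng was lower by the log2 size of 0.20 and Mfng was not. Lfng, which favours the answer of Notch to Delta ligands, stood at 427 on the control array and 349 on the HMGN1 array. Its difference of -0.28, 1.21-fold lower and 1.22-fold lower without the offset, was the lowest of the 10 genes, and 0.830% of detected genes lay below it. Mfng, an enzyme of the same activity, stood at 518 and 467, a difference of -0.15 or 1.11-fold lower, with 6.29% of detected genes below it. The related enzyme Rfng, no member of the set, stood at 206 and 189 (-0.11). Set side by side after their values were seen, the 4 Delta and Fringe genes of the set had differences from -0.28 to -0.14. All 4 were below 0, where 38.4% of all detected genes were. For Dll3, the least low of the 4, 7.23% of detected genes had a lower difference.

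Rbpj, the factor through which all of these receptors act on DNA, was not lower on its bright probe set. That probe set stood at 612 on the control array and 660.2 on the HMGN1 array, a difference of 0.11 or 1.08-fold higher. The other Rbpj probe set lay under the floor, at 43.6 and 33.9, with a difference of -0.26, so the probe sets of Rbpj disagree in direction. The mean of both was -0.074. RefSeq lists pseudogenes of Rbpj in mouse, which its probe sets may also catch, so its values are uncertain.

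**Figure D2:**
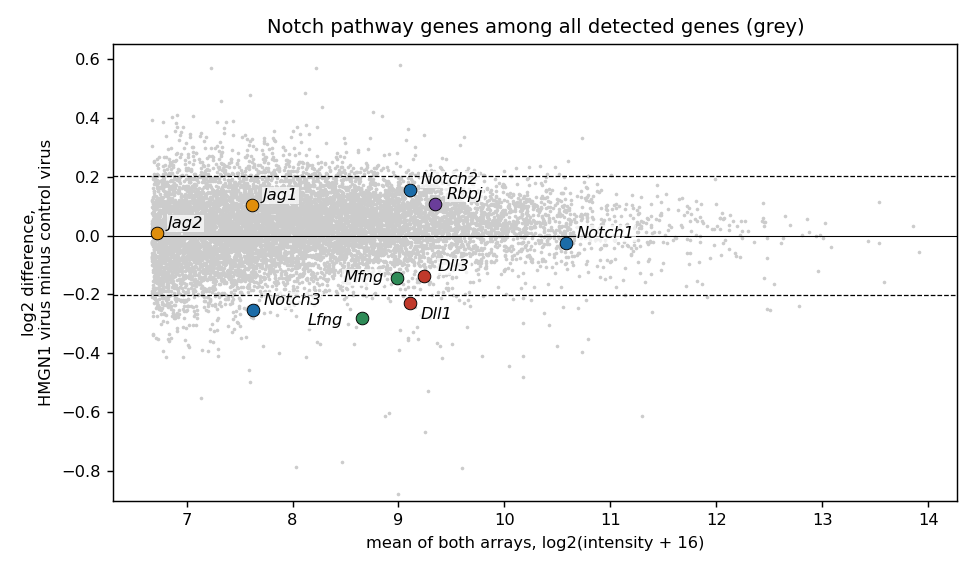
Log2 difference (HMGN1 virus minus control virus) against the mean of both arrays, log2(intensity + 16), for all 11325 detected genes (grey) and the 10 named genes (colour), 1 array per virus. Dashed lines mark a log2 difference of 0.20 either way: Lfng (-0.28), Notch3 (-0.25) and Dll1 (-0.23) lie below the lower line and none lies above the upper one.

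These differences were small. At a log2 difference of 0.32, 0 of the 10 genes were lower and 0 were higher, where 0.521% of detected genes were lower and 0.494% higher. At 0.14, a 1.1-fold difference, 4 were lower (Mfng joined the 3, and Dll3 stayed just short) and 1, Notch2, was higher, where 7.2% of detected genes were lower and 13.1% higher. Scatter depends on brightness, so each of the 3 lower genes was also placed among genes of like brightness, with the detected genes cut into 4 groups of equal size. In the group of Notch3 (intensity 143 to 244) 2.23% of genes were lower by 0.20 or more. In that of Lfng (244 to 451) 1.02% were, and in that of Dll1 (451 and above) 1.98% were.

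Across these arrays, short genes tended to be lower than long ones. Gene span is the stretch of genome from the first to the last annotated base of a gene. The median difference was -0.011 in the 2825 detected genes with a span of up to 9.41 kb and 0.052 in the 2824 genes of 59.3 kb and above. Lfng (8.21 kb) and Dll3 (8.23 kb) belong to the short group, where 6.48% of genes were lower by 0.20 or more. Dll1 (9.58 kb) and Mfng (17.6 kb) fall in the next group, with 1.91%, and Notch3 (46.1 kb) in the one after it, with 1.35%. Dll1 lies just past the cut of 9.41 kb, so its group depends on where the cut fell. Notch2 (137 kb) and Rbpj (102 kb), which had the highest differences, have the longest spans of the set. Notch1 (45.9 kb) and Notch3 have nearly the same span and differed by -0.025 and -0.25. With the trend on span removed, Lfng, Notch3 and Dll1 were lower by 0.20 or more, at -0.28, -0.30 and -0.24, and Notch2 moved to 0.10. The part of gene span in the values of these genes was not tested.

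**Figure D3:**
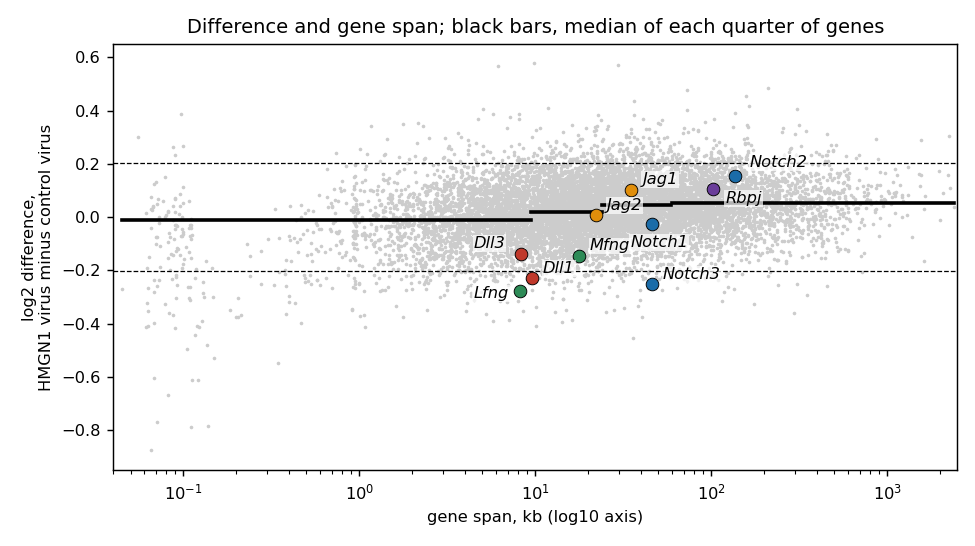
Log2 difference (HMGN1 virus minus control virus) against gene span in kb (log10 axis) for detected genes (grey) and the 10 named genes (colour); black bars give the median difference of 4 span groups of nearly equal size, and dashed lines a difference of 0.20 either way. Lfng, Dll3, Dll1 and Mfng (17.6 kb) have the shortest spans of the 10 and are low, and Jag2 (22.0 kb), in the same span group as Dll1 and Mfng, is near 0. Notch3 is low at 46.1 kb, and Notch2 and Rbpj have the longest spans of the 10 and are high.

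Genes that act with these 10 were taken by role: 84 detected genes of 95 measured, with no member among them. Of these 84, 1 was lower and 2 were higher by at least 0.20 on the log2 scale, which is 1.19% and 2.38% against 2.71% and 4.22% of all detected genes, and the median was 0.016, close to the 0.027 of all detected genes. The receptor proteases had a median of 0 over 9 detected genes. Adam17, a sheddase that can cut Notch, stood at 226 and 278, a difference of 0.28 and 1.21-fold higher. Adam10, the main sheddase of Notch, differed by 0.039 and was named after its value was seen. The γ-secretase subunits Aph1b (-0.11) and Aph1a (-0.058) were the lowest of that group, and Furin (0.067), which cuts the receptor in the Golgi, followed Adam17 at the top.

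The groups that act on ligands and on receptor sugars had medians close to 0. Over 7 detected genes of ligand endocytosis, the step that gives a ligand its pull, the median was 0.041, from Epn1 (-0.11) and Mib2 (-0.021) to Mib1 (0.093), the main ubiquitin ligase of Delta in mouse, and Dnm2 (0.11). Over 6 glycosylation enzymes it was 0.00034, from Rfng (-0.11) and Eogt (-0.023) to Pofut1 (0.026), which adds the fucose that Fringe extends, and Gxylt1 (0.068). Over 7 noncanonical ligands it was 0.0031, from Dlk2 (-0.14) and Mfap2 (-0.062) to the contactins Cntn1 (0.045) and Cntn6 (0.20).

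Genes of receptor turnover and of the Rbpj complex were mostly slightly higher, as were 60.1% of all detected genes. Of 10 turnover genes 9 were higher at any size, with a median of 0.051, from Numbl (-0.063) and Dtx2 (0.00038) to Nedd4 (0.11) and Dtx3 (0.16). Of 8 Rbpj coactivators 6 were higher (median 0.019), from Maml3 (-0.079) and Maml1 (-0.019) to Snw1 (0.080) and the acetyltransferase Kat2b (0.10). Of 14 detected genes in the corepressor list 10 were higher (median 0.049), from Tle1 (-0.062) and Ctbp2 (-0.056) to Kyat1 (0.17) and Spen (0.18), a corepressor that binds Rbpj. No role as a corepressor is claimed for Kyat1 and Begain, and the median without them was 0.048. With the gene span trend removed, the median of the turnover genes was 0.0057 and that of the corepressor list 0.0042.

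**Figure D4:**
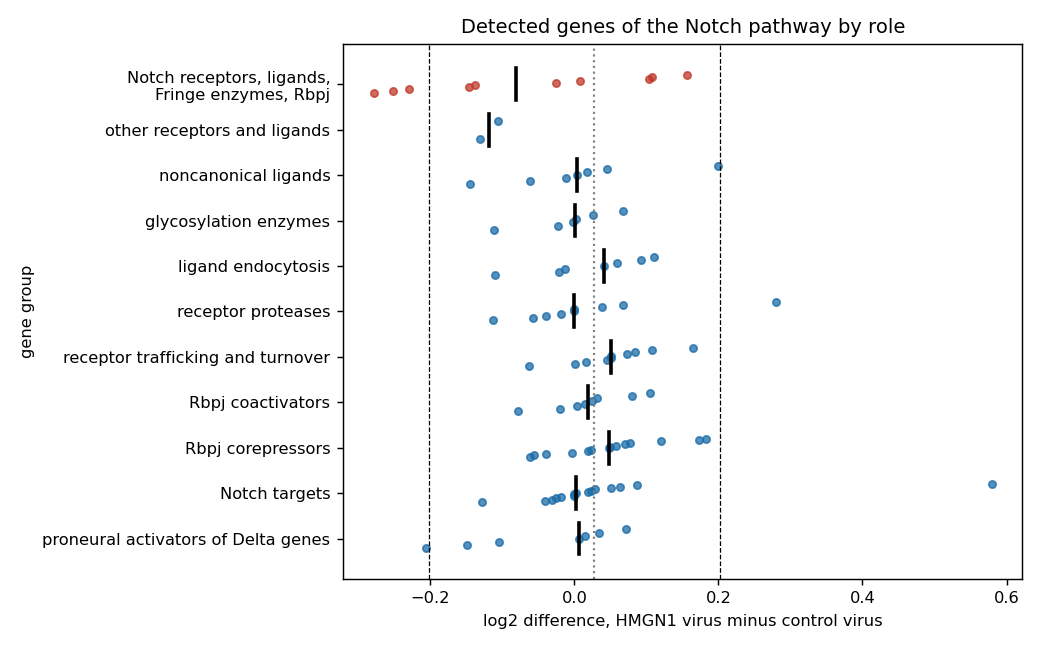
Log2 difference (HMGN1 virus minus control virus) of each detected gene, by role; black bars are medians, the dotted line is the median of all detected genes (0.027) and dashed lines mark 0.20 either way. The 10 Notch receptors, ligands, Fringe enzymes and Rbpj (red) have a median of -0.081, and the medians of the roles with at least 6 detected genes lie between 0 and 0.051.

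Notch targets as a list stayed near their control values. Of 15 detected targets 5 were lower and 8 higher at any size, where 38.4% of all detected genes were lower and 60.1% higher. The median of the targets was 0.0020. Hes1, a repressor that keeps precursors from differentiating, was dim at 113 and 115 (0.019), where the floor was 85.9. Hes5 stood at 460.3 and 452 (-0.025) and Hey1 at 424 and 424 (0.0020). Nrarp, a target that feeds back on the receptor, stood at 221 and 201 (-0.13) and was the lowest detected target, followed by Nes (-0.041). The astrocyte filament gene Gfap, which Notch signalling can promote, was the highest at 406 and 615 (0.58), ahead of the matrix gene Tnc (0.087).

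Proneural and related factors, several of which switch on Delta genes, had a median of 0.0067 over 7 detected genes. Of these, 1 was lower by 0.20 or more, where 2.71% of all detected genes were. That gene was the POU factor Pou3f3, at 549 and 474 (-0.21), and Neurod1 stood at 289 and 259 (-0.15). Insm1 (0.071) and Myt1 (0.034) were highest, and Neurog2, an activator of Dll1, differed by 0.0067, a value named after it was seen.

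Markers of the cell types that the culture could hold are given beside these genes. All 9 neural precursor markers were detected. At any size 5 were lower and 4 higher, where 38.4% of all detected genes were lower and 60.1% higher. The higher ones were Slc1a3 (0.15), Pax6 (0.11), Sox2 (0.013) and Vim (0.013). Sox1 (-0.35) and Prom1 (-0.24) were lower by at least 0.20, where 2.71% of all detected genes were, and no precursor marker was higher by as much. The summed intensity of the 9 was 24566 on the control array and 24473 on the HMGN1 array, most of it from the probe sets of Fabp7 (11137 and 10994) and Vim (7452 and 7521). All 8 markers of committed neuron precursors and young neurons were detected, 4 lower and 4 higher at any size, with Btg2 (-0.30) past the size downward and Eomes (0.22) upward. Their sum was 6634 and 6524. Of 6 astrocyte markers 5 were detected and 3 were higher by at least 0.20, Gfap, Aqp4 (0.32) and Gja1 (0.28), where 4.22% of all detected genes were. Aldoc (-0.072) and Aldh1l1 (0.044) did not reach that size, and S100b lay under the floor at 81.1 and 82.2. The sums of the 6 were 2872 and 3141, of which the Aldoc probe set gave 1574 and 1496. All 8 oligodendrocyte lineage markers were detected and 3 were higher by that size, Enpp6 (0.46), Gpr17 (0.33) and Mbp (0.28), while Olig2 (-0.16), Cspg4 (-0.059) and Olig1 (-0.016) had differences below 0. Their sums were 6038 and 6209. No detected marker in this paragraph had a difference of exactly 0. In RNA from a whole culture, fewer cells that make a gene and less RNA per cell cannot be told apart, and the part of these markers in the values of Lfng, Dll1 and Notch3 was not tested. Hmgn1 itself stood at 230 and 348, 1.48-fold higher in the HMGN1 virus sample.

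**Figure D5:**
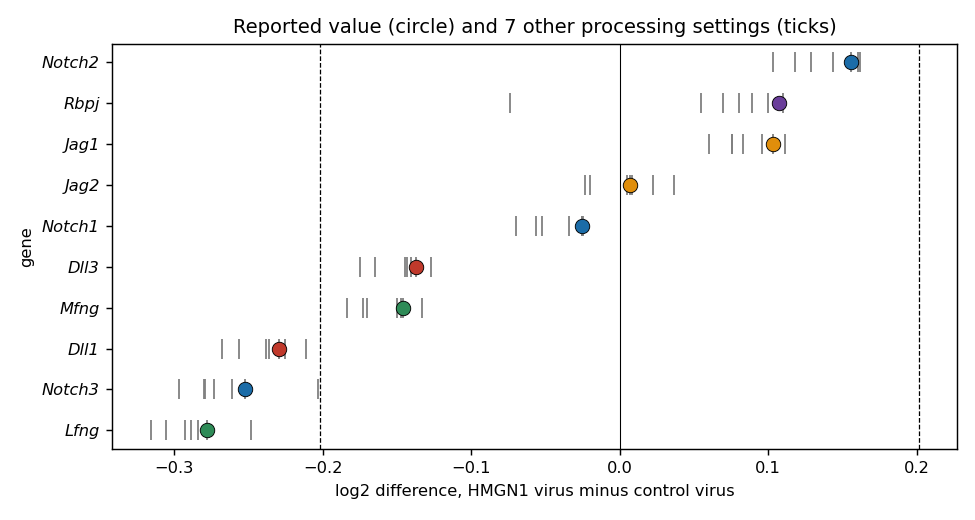
Log2 difference (HMGN1 virus minus control virus) of each of the 10 genes as reported (circles) and under 7 other processing settings (grey ticks), with dashed lines at 0.20 either way. Lfng, Notch3 and Dll1 lie beyond the lower line under each setting, Jag2 lies on both sides of 0, and the lone low tick of Rbpj (-0.074) is the mean of its probe sets.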

How the data were processed

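RNA of 2 cultures was labelled with biotin using a GeneChip WT kit and hybridised to 1-colour arrays, per the labels. The deposited values are intensities on a linear scale, for 28944 probe sets in each of 2 columns (medians 101 and 98.8). The background correction, normalization and probe summary used by the authors are not given in the sources used here. Intensities were taken as log2(intensity + 16), without further normalization. Symbols came from the platform annotation. Each gene took its brightest probe set, and the detection floor was the 95th percentile over 1035 probe sets of olfactory receptors. With 1 array in each group no spread can be estimated, so there was no test, and the number of arrays limits the precision. The 10 members were fixed by name, and members, gene lists and counting size were chosen with earlier results of these data known. Named genes are the members, Notch4, Dll4, Hmgn1, Hes1, Hes5, Hey1 and the 2 highest and 2 lowest detected genes of each role list; cell type markers come from a fixed list. The alternatives tried were centring, quantile normalization, removal of the intensity or gene span trend (loess, span 0.3), offsets of 1 and 64, means of probe sets, 2 other floors and 2 other sizes. Gene spans and promoters came from RefSeq (GRCm38.p6), and 9 of the 10 members had a promoter window. The code (Python 3.11.15, statsmodels 0.14.6) was tested on simulated data with planted differences larger than those of the 10 members. That test does not show how well differences of the size reported here are recovered.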

Additional observations from a re-analysis of the deposited data

How the results depend on the processing

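The count of 3 lower genes (Lfng, Notch3 and Dll1) was also 3 under each scaling, offset, trend removal, floor and probe set rule run; it was 4 at a log2 size of 0.14 and 0 at 0.32. The count of higher genes, 0, became 1 at 0.14, and both changes of size act by construction. Over the 7 settings for single genes, Lfng ran from -0.32 to -0.25, Notch3 from -0.30 to -0.20, Dll1 from -0.27 to -0.21, Dll3 from -0.18 to -0.13, Mfng from -0.18 to -0.13 and Notch2 from 0.10 to 0.16. Rbpj moved to -0.074 with the mean of its probe sets, since its dim probe set is lower. The median of the members ran from -0.14 (with the floor at the 99th percentile, which drops Jag2) to -0.076. Centring turned the background around: 4.06% of detected genes were then lower by at least 0.20 and 2.42% higher, against 2.71% and 4.22%. List medians near 0 changed sign under at least 1 setting for the noncanonical ligands, glycosylation enzymes, ligand endocytosis, Rbpj coactivators, Notch targets and proneural factors. The median of the receptor proteases, 0 as reported, ran from -0.027 to 0.0041. No paired analysis was possible because there is a single array per virus, and for the same reason no array could be left out. Low signal limits Jag2, Notch4, Dll4 and Hes1, which lie near the floor.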
